A study of Mus musculus with 12 samples.

Results

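The enzymes that build and break down heme were followed in sorted mouse cardiomyocytes (CMs, the muscle cells of the heart) with and without Srf, the gene for serum response factor. The 9 genes (Alas1, Alas2, Alad, Uros, Urod, Cpox, Fech, Hmox1 and Hmox2) were chosen by pathway membership, as rows with these symbols among the 23337 genes of the count tables, with the comparisons between groups in these samples already known. Their fold changes and adjusted p-values therefore place them among all genes as a description and are not an independent test. RNA was counted in 4 groups of 3 samples. All animals carried a Cre-activated fluorescent reporter and received an adeno-associated virus (AAV9) that expresses Cre from the cTNT promoter of CMs, at a low dose that leaves most CMs of a heart untouched. KO animals had both Srf copies floxed and CTRL animals (Srf-flox/+) had 1 floxed copy and 1 intact copy, so CTRL CMs were exposed to virus and Cre as well and kept 1 copy of Srf that Cre cannot remove. Virus was given at postnatal day (P) 1 with collection at P14 in the neonatal groups, and at P60 with collection at P90 in the adult groups. Fluorescent CMs were sorted, and cDNA was amplified from a small amount of RNA before the libraries were made.

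Heme synthesis begins in the mitochondrion, where 5-aminolevulinate synthase joins glycine and succinyl-CoA in the rate-limiting step. The ring is then assembled by enzymes of the cytosol and finished in the mitochondrion, where ferrochelatase inserts iron, and heme oxygenases open the ring again to release iron, carbon monoxide and biliverdin. In the heart most heme is bound by the cytochromes of the respiratory chain and by myoglobin, the oxygen store of muscle.

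Alas1, which encodes the form of 5-aminolevulinate synthase used outside red cells, was the synthesis enzyme with the lowest level relative to CTRL in neonatal KO CMs. The gene spans 106233455 to 106247954 of chromosome 9 on the minus strand (mm10). Its level, in CPM (counts scaled to the TMM-adjusted size of the library), was 468, 588 and 583 in the P14 CTRL samples and 247, 273 and 189 in the P14 KO samples. In the P90 samples it was 464, 525 and 560 in CTRL and 654, 559 and 525 in KO. Each P14 KO sample lay below each of the other 9 samples, and the P90 groups overlapped.

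The group means of Alas1 were 546.5 ± 67.8 CPM (SD, n = 3) in P14 CTRL and 236.3 ± 43.3 CPM (SD, n = 3) in P14 KO, so P14 KO retained 43.2% of the CTRL mean. This was a log2 fold change of -1.21 ± 0.16 (SE) at an adjusted p of 0.00875 (edgeR quasi-likelihood test, Benjamini-Hochberg adjustment over all genes tested), and Alas1 fell in all 13 ways of fitting this comparison, with an adjusted p of at most 0.0427. At P90 the CTRL mean was 516.3 ± 48.4 CPM and the KO mean 579.3 ± 67.1 CPM (SD, n = 3 each), giving a log2 fold change of 0.17 ± 0.11 (SE) and an adjusted p of 0.484 (edgeR). The neonatal effect minus the adult effect, tested as an interaction of stage and genotype over all 12 samples, was -1.38 ± 0.21 (SE, log2) for Alas1, with an adjusted p of 0.0156 (edgeR). Of the 9 enzymes, Alas1 alone passed this test, beside 1.78% of all genes tested, and Alad passed as well with DESeq2 and in the fit with a replicate block. The call for Alas1 was lost without P90 CTRL replicate 3 (adjusted p = 0.0517, edgeR) and without P90 KO replicate 2 (adjusted p = 0.0616, edgeR).

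Reference promoter sequence is shown for Alas1 and Alad, the synthesis enzymes that passed the test in neonatal KO. The sequences are from RefSeq (GRCm38.p6, the same build as mm10), which gave windows of 250 bases before to 50 bases after a transcription start for 7 of the 9 genes, 12 windows in all. Fech and Hmox1 had no window and were not searched. Both Alas1 stretches are on the minus strand, before the downstream of its RefSeq starts and inside the first exon of the gene model in the tables. Capitals mark the letters that matched.
Alas1, chr9:106247906-106247935: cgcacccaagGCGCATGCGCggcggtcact
Alas1, chr9:106247880-106247909: cactccggctCTATATTTAGggccgccagc
Alad, chr4:62520064-62520313: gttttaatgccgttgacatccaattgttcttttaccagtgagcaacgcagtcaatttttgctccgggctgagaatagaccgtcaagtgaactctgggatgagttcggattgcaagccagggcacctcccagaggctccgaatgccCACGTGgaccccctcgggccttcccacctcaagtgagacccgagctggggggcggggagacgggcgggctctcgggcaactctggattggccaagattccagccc

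Both strands of each window were searched for GCGCATGC, the core of the motif of NRF1 (a regulator of nuclear genes for mitochondrial proteins), for the MEF2 site, for the E-box CACGTG and for the CArG box, the motif of serum response factor. The capitals of the first Alas1 stretch are a pair of overlapping GCGCATGC matches, 1 per strand, and 2.71% of the 32851 RefSeq windows of this length held that motif. The capitals of the second stretch are a MEF2 site, held by 3.19% of windows. CACGTG was in 4 of the 12 windows, of Alad, Uros and Urod, and in 7.15% of all windows. The CArG box was in 0 of the 12 windows and in 1.63% of all windows. Outside these 12 windows, the biliverdin reductase gene Blvrb held a CArG box at bases -12 to -3 from a start. The matches are letters in a reference and say nothing of binding in these cells.

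Alad encodes aminolevulinate dehydratase, the enzyme after 5-aminolevulinate synthase, and lies on chromosome 4 at 62509170 to 62520063. Its level was 55.4, 60.3 and 59.8 CPM in P14 CTRL and 36.9, 42.2 and 43.2 CPM in P14 KO. It was 91.5, 73.1 and 76.5 CPM in P90 CTRL and 96.7, 85.9 and 76.4 CPM in P90 KO. The P14 groups did not overlap, every P14 sample lay below every P90 sample, and the P90 groups overlapped.

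P14 KO retained 69.7% of the P14 CTRL mean of Alad, with a log2 fold change of -0.52 ± 0.11 (SE) and an adjusted p of 0.0252 (edgeR). The adult log2 fold change was 0.11 ± 0.12 (SE, adjusted p = 0.703, edgeR). Between stages the effects differed by -0.62 ± 0.16 (SE, log2, adjusted p = 0.0676, edgeR), which did not pass. The neonatal call for Alad was lost without any 1 of the 3 P14 KO samples, with adjusted p-values up to 0.0958 (edgeR), without P14 CTRL replicate 3 (adjusted p = 0.0542, edgeR), and when libraries were scaled to their total counts with no TMM factor (adjusted p = 0.108, edgeR).

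Fech encodes ferrochelatase, which inserts iron into protoporphyrin, and lies on chromosome 18 at 64456550 to 64489066. Its level was 204, 247 and 205 CPM in P14 CTRL and 171, 163 and 157 CPM in P14 KO. It was 319, 358 and 340 CPM in P90 CTRL and 325, 315 and 339 CPM in P90 KO. The P14 KO samples lay below the P14 CTRL samples, both lay below all P90 samples, and the P90 groups overlapped. Neonatal KO differed by -0.42 ± 0.12 on the log2 scale (SE, adjusted p = 0.0605, edgeR) and adult KO by -0.05 ± 0.09 (SE, adjusted p = 0.822, edgeR). Neonatal Fech passed with DESeq2 (adjusted p = 0.0192) and in the fit of all 12 samples (adjusted p = 0.0113, edgeR).

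Uros, Urod and Cpox, which make, decarboxylate and oxidise the porphyrinogen intermediates, had smaller differences that did not pass the test at either stage. Uros (chromosome 7, 133686330 to 133709295) was 48.0, 57.4 and 64.1 CPM in P14 CTRL and 45.4, 42.3 and 46.4 CPM in P14 KO. Urod (chromosome 4, 116990217 to 116994375) was 90.8, 109.2 and 97.8 CPM in P14 CTRL and 82.7, 86.04 and 79.5 CPM in P14 KO. Cpox (chromosome 16, 58670208 to 58680389) was 57.3, 58.6 and 76.1 CPM in P14 CTRL and 49.9, 47.2 and 57.1 CPM in P14 KO. For each of the 3 genes the highest KO sample was just under the lowest CTRL sample. Their neonatal log2 fold changes were -0.34 ± 0.13, -0.27 ± 0.11 and -0.32 ± 0.14 (SE), with adjusted p-values of 0.144, 0.164 and 0.203 (edgeR). In adult KO they were -0.13 ± 0.10, 0.15 ± 0.10 and -0.03 ± 0.12 (SE), with adjusted p-values of 0.558, 0.518 and 0.940 (edgeR).

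**Figure D1:**
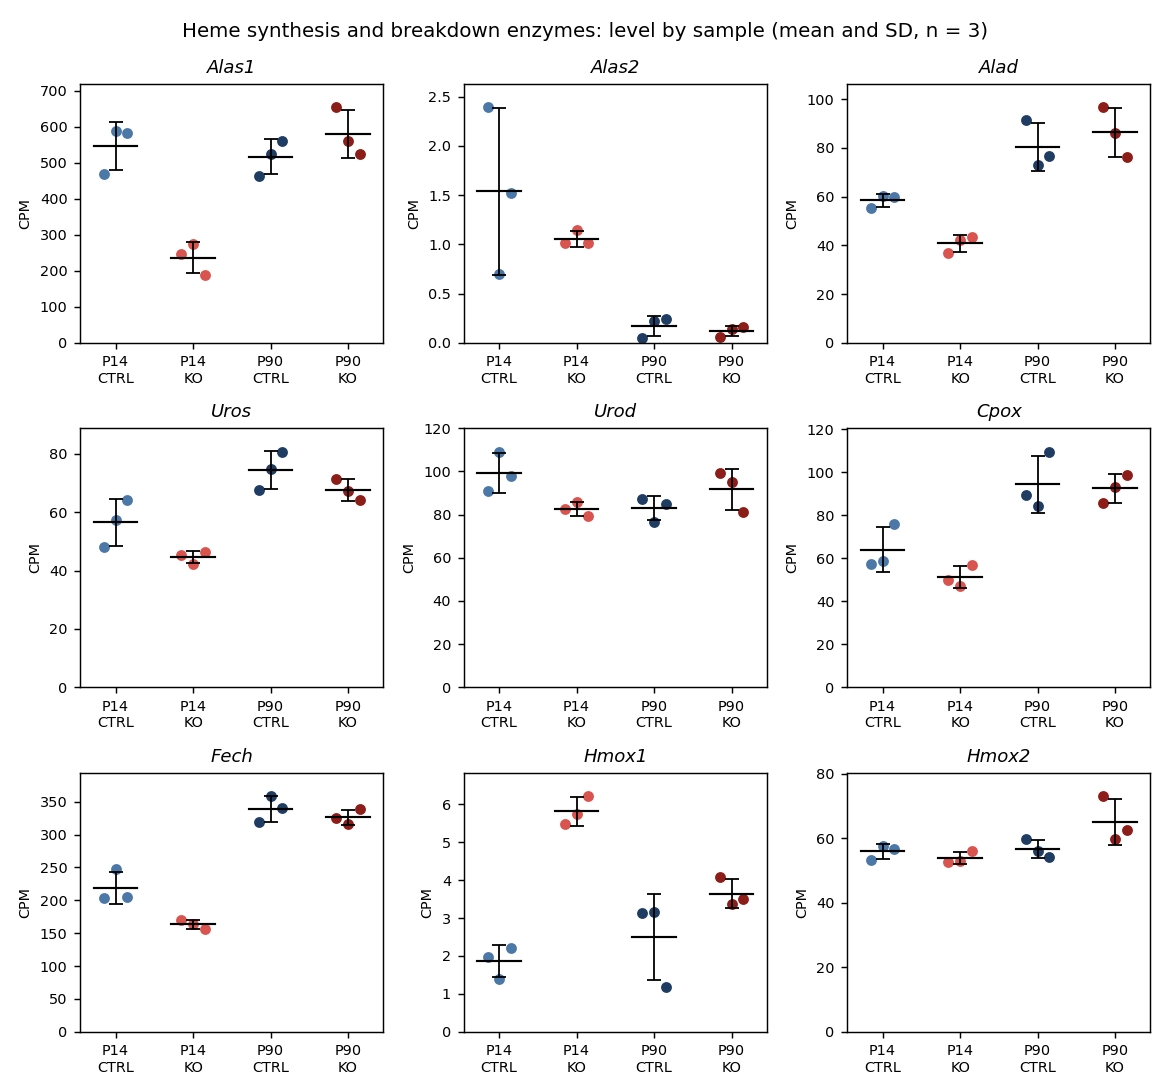
Level of each of the 9 heme enzymes in CPM (vertical axes, from 0) in P14 CTRL, P14 KO, P90 CTRL and P90 KO, with 1 point per sample and the mean and SD of 3 samples as lines. The P14 KO samples of Alas1 sit between 189 and 273 CPM, below all other samples, and those of Hmox1 between 5.48 and 6.21 CPM, above all other samples.

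Alas2, the erythroid form of 5-aminolevulinate synthase, was close to the limit of detection. It lies on chromosome X at 150547417 to 150570622. It had 51, 14 and 26 reads in P14 CTRL, 19, 24 and 20 reads in P14 KO, and 1 to 3 reads in each of the 6 P90 samples. The neonatal groups overlapped, with a log2 fold change of -0.54 ± 0.45 (SE, adjusted p = 0.509, edgeR). At P90 it was under the low-count filter and at or under a floor of 3 counts, which is 0.130 to 0.308 CPM in these libraries, so no fold change is given there.

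Defining genes of red cells were at or near 0 as well. Of 13 erythroid markers 8 were in the tables, and their summed level was at most 0.985 CPM in any sample. Hba-a1, Hba-a2, Hbb-b1 and Hbb-b2, the globin genes, had 0 counts in all samples, but each shares most of its exons with its copy in the tables, so these rows check nothing. Slc4a1, Klf1, Rhag and Ermap, which overlap no other gene, were at most 0.469 CPM. In these sorted samples fewer cells of a type and less RNA per cell cannot be told apart.

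Hmox1 encodes the inducible heme oxygenase and is known as a target of the stress factor NRF2 and of the heme-sensing repressor BACH1. It lies on chromosome 8 at 75093618 to 75100593 and was lowly expressed. Its counts were 42, 28 and 38 reads in P14 CTRL and 103, 120 and 123 reads in P14 KO, or 1.97, 1.40 and 2.22 CPM against 5.48, 5.74 and 6.21 CPM. At P90 it was 3.14, 3.15 and 1.19 CPM in CTRL and 4.08, 3.37 and 3.49 CPM in KO. The P14 KO samples were the highest of the 12, and at P90 the lowest KO sample was just above the highest CTRL sample.

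The mean of Hmox1 was 3.12-fold higher in P14 KO than in P14 CTRL, with a log2 fold change of 1.64 ± 0.26 (SE) and an adjusted p of 0.0132 (edgeR). The adult fold change was 0.54 ± 0.32 on the log2 scale (SE; adjusted p = 0.429, edgeR). Between stages the effects differed by 1.10 ± 0.43 (SE, log2, adjusted p = 0.193, edgeR), which did not pass. Without any 1 of the 3 P14 KO samples the neonatal log2 fold change of Hmox1 was 1.60 to 1.68, and its adjusted p rose to 0.0532 to 0.0630 (edgeR).

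Macrophages also express Hmox1, and their markers were low, as Hmox1 itself was. The summed level of the 9 macrophage markers in the tables, of 10 listed, was 6.85 to 10.4 CPM in P14 CTRL and 11.01 to 15.3 CPM in P14 KO, and 0 of the 7 tested passed. All 7 had a positive log2 fold change in neonatal KO, with a median of 0.56 against 0.00 over all genes. Csf1r, the receptor that defines the lineage, was 2.28 ± 0.27 CPM (SD, n = 3) in P14 CTRL and 3.62 ± 0.62 CPM (SD, n = 3) in P14 KO. At P90 the marker sum was 7.89 to 15.3 CPM in CTRL and 10.4 to 13.5 CPM in KO. The part of these cells in the level of Hmox1 was not tested.

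Hmox2, the constitutive heme oxygenase, did not follow Hmox1. It lies on chromosome 16 at 4726361 to 4766249 and shares 798 bp of exon with 5730403B10Rik on the opposite strand. As the libraries do not mark strand, its count is uncertain. It was 53.4, 57.6 and 56.8 CPM in P14 CTRL and 52.7, 52.9 and 56.01 CPM in P14 KO, so the groups overlapped. The log2 fold change was -0.06 ± 0.10 (SE, adjusted p = 0.774, edgeR) in neonatal KO, turning to 0.16 under scaling to total counts, and 0.20 ± 0.11 (SE, adjusted p = 0.365, edgeR) in adult KO.

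In neonatal KO 3 of the 9 enzymes passed the test, Alas1 and Alad lower and Hmox1 higher. Among all 12546 genes tested 8.59% passed, 4.6% lower and 3.99% higher. The KO and CTRL samples did not overlap for 7 of the 9 enzymes, 6 below and 1 above, against 32.7% of all genes tested. Without any 1 of the 3 P14 KO samples, replicate 3 with its low Srf among them, 1 of the 9 passed, Alas1. The median log2 fold change of the 9 was -0.34, against 0.00 over all genes. In adult KO 0 of the 8 enzymes tested passed (edgeR), 0 had an unadjusted p under 0.05 and DESeq2 called 0, beside 0.39% of all 11808 genes tested. The adult groups did not overlap for 1 enzyme, Hmox1, beside 21.6% of all genes. As the list was drawn up with these comparisons known, nothing is read from these shares.

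**Figure D2:**
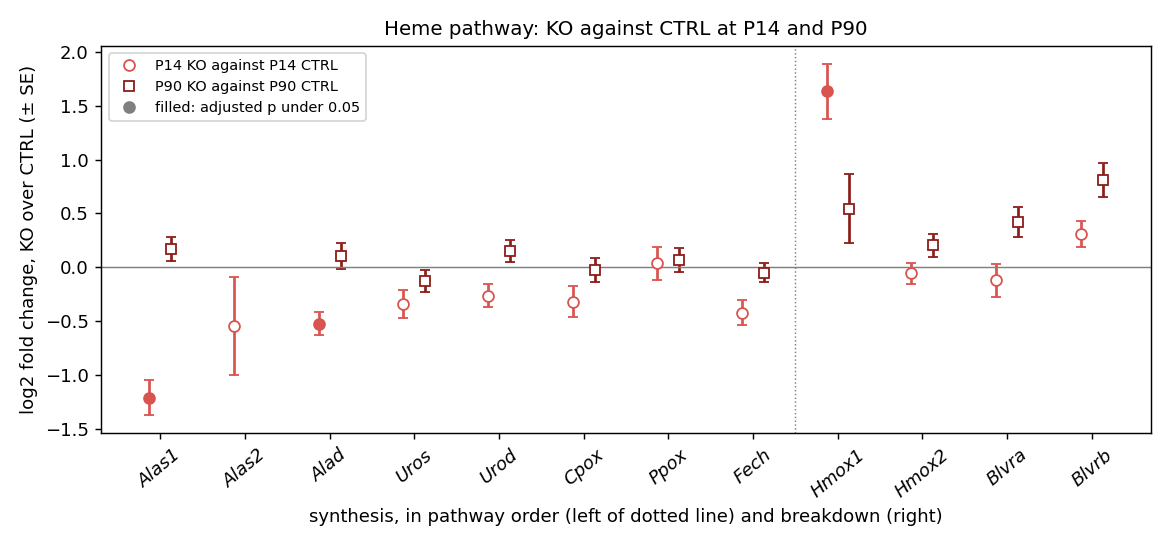
Log2 fold change of KO over CTRL (vertical axis, ± SE) for the 9 enzymes and for Ppox, Blvra and Blvrb, in pathway order, at P14 (circles) and P90 (squares), with filled symbols for an adjusted p under 0.05. Alas1 at -1.21 and Hmox1 at 1.64 lie farthest from 0 at P14, and Alas2 has no P90 value.

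Of other enzymes of the route, Ppox (protoporphyrinogen oxidase) and the biliverdin reductases Blvra and Blvrb gave 0 calls of 3 at either stage (edgeR). The largest differences were in the reductases. Blvra was 16.4 CPM in P90 CTRL and 21.8 CPM in P90 KO on average (log2 fold change 0.42 ± 0.14 SE, adjusted p = 0.175, edgeR). Blvrb was 9.70 ± 0.96 CPM in P90 CTRL and 17.0 ± 2.86 CPM in P90 KO (SD, n = 3; 0.81 ± 0.16 SE, adjusted p = 0.0554, edgeR), and it passed with DESeq2 (adjusted p = 0.00305), with no filter and in the fit with a replicate block. In neonatal KO Blvrb had a log2 fold change of 0.31 ± 0.12 (SE, adjusted p = 0.159, edgeR), and under scaling to total counts it was 0.53 and passed (adjusted p = 0.0349, edgeR).

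On a scale that allows genes to be compared (CPM per kb of exon), Alas1 had the highest mean of these 12 enzymes in each group. It was 202 ± 25.1 CPM per kb (SD, n = 3) in P14 CTRL, followed by Urod at 82.8 ± 7.75 and Fech at 75.4 ± 8.63, which overlapped each other. In P14 KO it was 87.5 ± 16.03 CPM per kb and overlapped Urod at 69.02 ± 2.73, with Fech apart at 56.4 ± 2.37. In both P90 groups the order at the top was Alas1, Fech and Urod, each apart from the next, with Urod overlapping Alad. Hmox1 and Alas2 were the lowest in each group, and Hmox2 exceeded Hmox1 by 29.5-fold to 47.5-fold per kb in P14 CTRL samples and by 10.4-fold to 11.1-fold in P14 KO samples. Of the summed level per kb of the 8 synthesis enzymes among them, Alas1 made up 41.3% to 43.9% in P14 CTRL samples and 24.5% to 32.04% in P14 KO samples. Its share was 34.4% to 38.2% in CTRL and 37.8% to 41.2% in KO at P90.

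**Figure D3:**
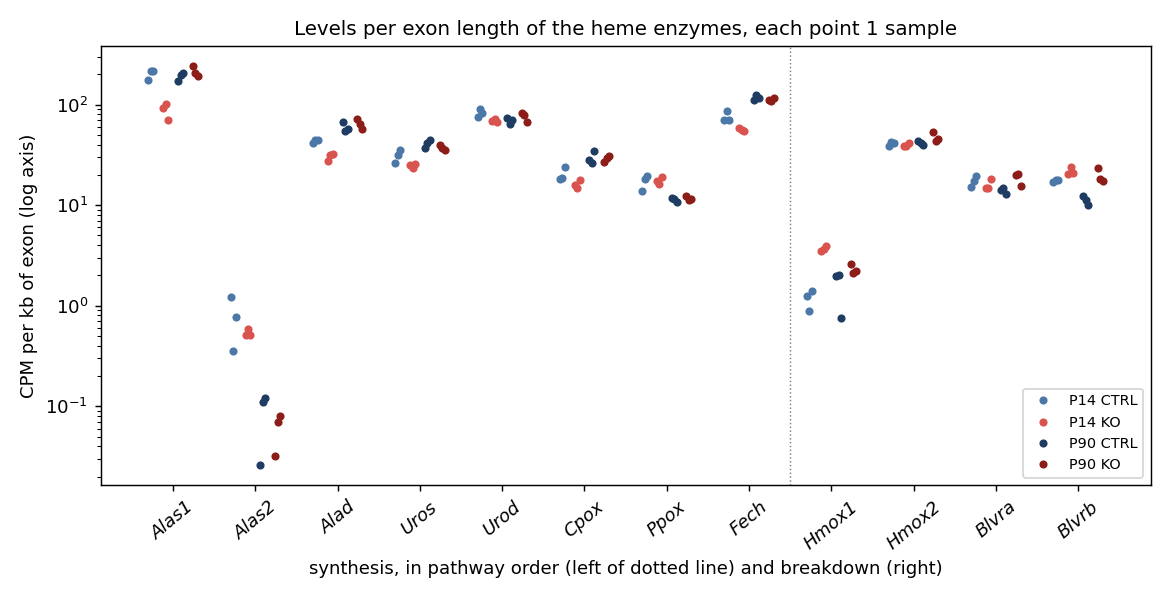
Level per kb of exon (vertical axis, CPM per kb, log axis) of 12 enzymes of heme synthesis and breakdown in pathway order, with 1 point per sample and colours for the 4 groups. Alas1 is the highest in P14 CTRL, near 202 CPM per kb, and comes down to the range of Urod in P14 KO, while Alas2 and Hmox1 are the lowest.

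CTRL CMs of the 2 ages were compared to follow the enzymes from P14 to P90. Fech, Cpox and Alad were higher at P90, Alas2 was lower, and Alas1 differed little. Fech rose to 155% of its P14 mean (log2 fold change 0.64 ± 0.12 SE, adjusted p = 0.0044, edgeR), Cpox to 147% (0.56 ± 0.15, adjusted p = 0.0251, edgeR) and Alad to 137% (0.46 ± 0.12, adjusted p = 0.0200, edgeR). The summed reads of Alas2 were 91 in P14 CTRL and 6 in P90 CTRL, a ratio of 10.7 after scaling (95% exact interval 4.74 to 29.9, for counting error only), with an adjusted p of 0.00867 (edgeR). The same ratio between the KO groups was 8.86 (3.85 to 25.1), from 63 and 6 reads.

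Alas1 was 546.5 CPM in P14 CTRL and 516.3 CPM in P90 CTRL, a log2 difference of -0.08 ± 0.13 (SE, adjusted p = 0.674, edgeR). Uros (0.40 ± 0.14, adjusted p = 0.0537), Urod (-0.25 ± 0.11, adjusted p = 0.121), Hmox1 (0.42 ± 0.41, adjusted p = 0.469) and Hmox2 (0.02 ± 0.10, adjusted p = 0.895) did not pass (edgeR). Uros passed in 5 of 13 ways of fitting this comparison, DESeq2 among them (lowest adjusted p = 0.0147), and Urod passed under scaling to total counts (-0.37, adjusted p = 0.0268, edgeR). In all, 4 of the 9 enzymes passed, 3 higher and 1 lower, beside 29.3% of all 12294 genes tested, 14.5% higher and 14.9% lower, and the groups did not overlap for 6 of the 9, beside 44.9% of all genes. The call of Cpox was lost without P14 CTRL replicate 1 and without P90 CTRL replicate 1 or 3 (adjusted p up to 0.0943, edgeR) and under scaling to total counts (adjusted p = 0.0626, edgeR). The call of Alad was lost without the same 3 samples, each in turn (adjusted p up to 0.0852, edgeR), and that of Alas2 without P90 CTRL replicate 1 (adjusted p = 0.0520, edgeR). Age cannot be told apart from any difference in handling between the 2 tables, and this comparison shares its CTRL samples with the KO comparisons. Some markers of fibroblasts, endothelial cells and mural cells were lower at P90 too, while 0 of 7 macrophage markers tested passed. Of 5 fibroblast markers tested 3 fell, with a summed level of the 6 listed of 96.2 to 285 CPM in P14 CTRL and 45.05 to 63.7 CPM in P90 CTRL. Of 5 endothelial markers 3 fell (Pecam1, Cdh5 and Emcn), with sums of 145 to 296 and 141 to 194 CPM. Of 4 mural markers 1 fell, Cspg4, with sums of 73.2 to 150.1 and 62.6 to 93.9 CPM. The part of these cells in the stage differences was not tested.

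Around the enzymes, genes of 6 lists drawn up from known pathways were counted in the KO comparisons. These lists too were made with earlier results of these data known. Of the iron-sulfur cluster assembly genes, which make the other iron cofactor of mitochondria, 5 of the 14 tested fell in neonatal KO and 0 rose, beside 4.6% of all genes lower and 3.99% higher. The median log2 fold change of this list was -0.55, against 0.00 over all genes. Hspa9, the mitochondrial chaperone, fell from 942 to 598 CPM (log2 fold change -0.66, adjusted p = 0.0196, edgeR), Ndufab1, the acyl carrier protein, by 0.71 on the log2 scale (adjusted p = 0.0215, edgeR) and Isca1, a late carrier protein, by 0.63 (adjusted p = 0.0220, edgeR). Glrx5, a glutaredoxin that passes clusters on, fell from 146 to 104 CPM (-0.50, adjusted p = 0.0330, edgeR), but not under scaling to total counts (adjusted p = 0.0967, edgeR) or without P14 CTRL replicate 1 (adjusted p = 0.0565, edgeR). In adult KO 0 of 14 passed, with a median of 0.05.

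Of the genes for heme a and c synthesis and for proteins that hold heme, 3 of 11 fell in neonatal KO and 0 rose, with a list median of -0.39 and the same 4.6% of all genes lower. They were Cox10, which starts heme a synthesis (108 to 66.03 CPM, log2 fold change -0.72, adjusted p = 0.0121, edgeR), Cyc1, the cytochrome c1 of complex III (1972 to 1230.3 CPM, -0.69, adjusted p = 0.0246, edgeR), and Cycs, cytochrome c (384 to 189 CPM, -1.02, adjusted p = 0.0365, edgeR). In adult KO 0 of 11 passed, with a median of -0.03.

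Of the genes for heme and mitochondrial iron transport, 1 of 14 fell in neonatal KO, Clpx, the mitochondrial unfoldase that acts on 5-aminolevulinate synthase (195 to 128 CPM, log2 fold change -0.61, adjusted p = 0.0343, edgeR), and its call was lost under scaling to total counts (adjusted p = 0.0563, edgeR). This share is near that of all genes, of which 4.6% fell and 8.59% passed either way. In cellular iron uptake, storage and sensing 3 of 15 passed, 1 higher and 2 lower. Cp, the ferroxidase ceruloplasmin, rose from 35.3 to 106.8 CPM (log2 fold change 1.59, adjusted p = 0.00875, edgeR). Steap3, a ferrireductase, fell by 0.63 (adjusted p = 0.0200, edgeR) and Slc40a1, the iron exporter ferroportin, by 0.90 on the log2 scale (adjusted p = 0.0313, edgeR), the latter not under scaling to total counts (adjusted p = 0.0515, edgeR) or without P14 CTRL replicate 1 or 3 (adjusted p up to 0.0782, edgeR). In adult KO 0 of 14 and 0 of 15 passed (edgeR). Slc40a1 was 63.7 CPM in P90 CTRL and 40.7 CPM in P90 KO on average (log2 fold change -0.65, adjusted p = 0.0946, edgeR) and passed in 4 of 13 ways of fitting, with DESeq2 (adjusted p = 0.00829), no filter, the block and without P90 CTRL replicate 2. Cp had an adult log2 fold change of 0.38 (adjusted p = 0.148, edgeR) and passed in 2 of 13, with no filter and with the block. The medians of the transport and iron lists were -0.21 and -0.18 in neonatal KO, and -0.03 and -0.05 in adult KO.

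Of 11 regulators, Mafk and Mafg, the small MAF partners of NRF2 and BACH1, rose in neonatal KO. Mafk was 42.2 ± 6.07 CPM in P14 CTRL and 83.7 ± 2.42 CPM in P14 KO (SD, n = 3; log2 fold change 0.98, adjusted p = 0.00708, edgeR), and Mafg rose by 0.48 on the log2 scale (adjusted p = 0.0340, edgeR), but not without P14 CTRL replicate 1 or 2 (adjusted p up to 0.0753, edgeR). Of 9 further targets of NRF2 and BACH1, Gclm, a subunit of the enzyme that limits glutathione synthesis, alone passed (17.1 to 27.9 CPM, log2 fold change 0.70, adjusted p = 0.0215, edgeR), though not without P14 CTRL replicate 1 (adjusted p = 0.0536, edgeR). Of all genes 3.99% rose. In adult KO 0 of the 11 regulators and 0 of the 8 targets tested passed. The medians of the regulators and targets were 0.17 and 0.36 in neonatal KO, and 0.00 and -0.06 in adult KO.

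Over all 7 lists, the other heme enzymes included, 15 of 77 genes passed in neonatal KO, beside 8.59% of all genes, and nothing is read from the difference. Without P14 KO replicate 1, 2 or 3 these counts were 3, 2 and 2 of 77, with Cp and Mafk in each, while 202 of 12784, 111 of 12717 and 181 of 12735 genes passed in all. In adult KO 0 of 76 passed (edgeR), beside 0.39% of all genes, against 3 with DESeq2, 7 of 77 with no filter and 6 with the block. In neonatal KO the median of the iron-sulfur list was -0.51 to -0.54 in the fits without 1 P14 KO sample. It was -0.38 to -0.63 in the fits without 1 P14 CTRL sample. Under scaling to total counts its neonatal median was -0.32 and that of the heme a and c list -0.20, with the median of all genes at 0.22. In that fit 6 of the 11 regulators and 5 of the 9 targets passed, beside 1724 of all 12546 genes, 1405 of them higher.

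**Figure D4:**
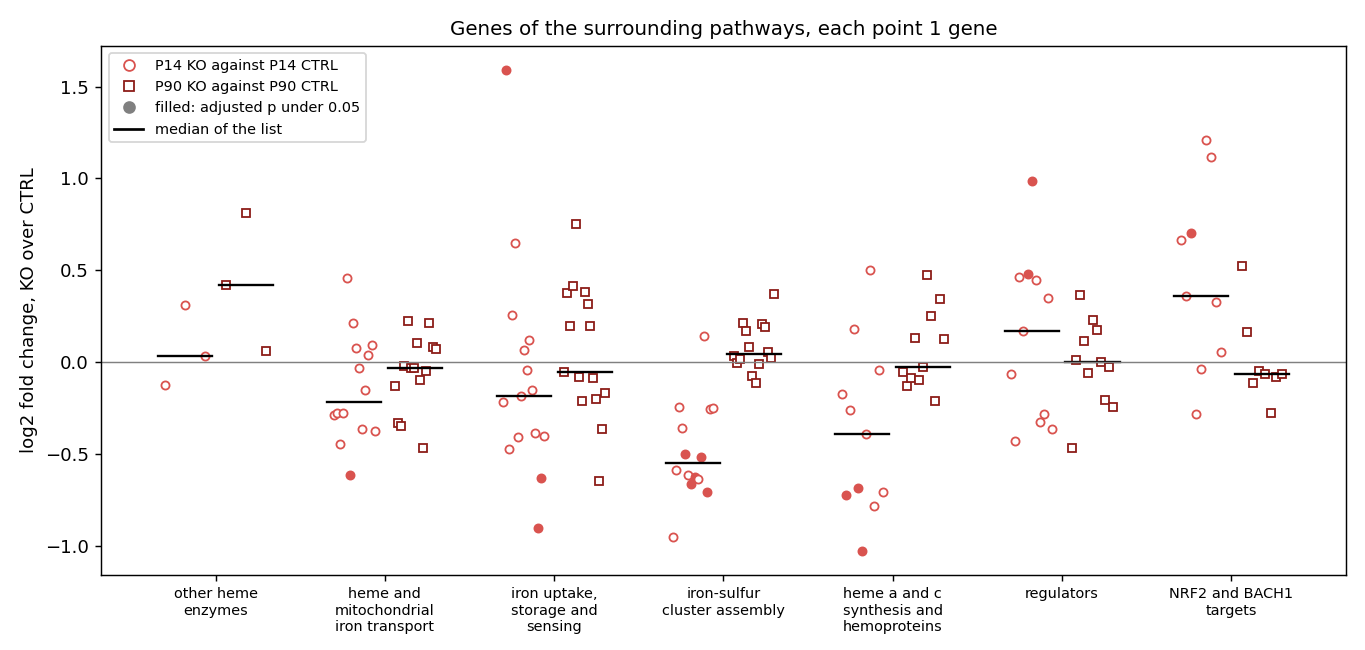
Log2 fold change of KO over CTRL (vertical axis) for each gene tested of 7 lists around heme, at P14 (circles) and P90 (squares), with filled symbols for an adjusted p under 0.05 and black lines for list medians. The iron-sulfur list has its P14 median at -0.55 and its P90 median at 0.05, and no P90 symbol is filled.

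The genes whose levels were most like those of an enzyme were found by Pearson's r of log2 CPM over the 12 samples, each stage centred on its own mean, among 9466 genes with a mean of at least 5 CPM. The points are 3 samples of each of 4 groups, so a gene that differs between the P14 groups scores high, and the values are a description. For Hmox1, the member with the largest fold change at both stages, they were Clic1 (r = 0.953), Fancc (0.951), Msn (0.949), Dip2b (0.944) and Dpysl3 (0.944). For Alas1, added after its values were seen, they were Ndufv1 (r = 0.975), Atp5c1 (0.974), Phyh (0.971), Samm50 (0.967) and Idh3g (0.966). Ndufv1 and Atp5c1 encode subunits of complex I and ATP synthase, Phyh a peroxisomal hydroxylase, Samm50 a mitochondrial outer membrane protein and Idh3g a subunit of isocitrate dehydrogenase. Among the heme enzymes, Alas1 was most like Fech (r = 0.863) and Alad (0.810), and Hmox1 had r = -0.829 with Fech and -0.771 with Alas1. For Alas2, with 1 to 3 reads per P90 sample, r was at most 0.888 (Dock9, ahead of Cd97, Lrch1, a row the tables name 11-Sep, and Pkp4), and nothing is read from it.

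Srf itself was 63.9, 57.1 and 49.4 CPM in P14 CTRL, 32.1, 27.5 and 9.75 CPM in P14 KO, 71.1, 59.1 and 81.05 CPM in P90 CTRL and 32.8, 28.9 and 28.1 CPM in P90 KO, with KO below CTRL throughout. P14 KO replicate 3 stood apart, and the neonatal difference (log2 fold change -1.30 ± 0.36 SE, adjusted p = 0.0628, edgeR) passed without it (-0.92, adjusted p = 0.0474, edgeR). Over the ways of fitting, neonatal Srf passed in 5 of 13 (log2 fold change -1.60 to -0.92) and adult Srf in 12 of 13 (-1.34 to -1.12). Total counts were 9740389 to 23103460 per sample. The summed level of 7 CM markers was 86737 to 93594 CPM in CTRL and 62498 to 67044 CPM in KO at P14, and 86283 to 95221 CPM and 78856 to 81618 CPM at P90, all far above the 45.05 to 300.2 CPM of the fibroblast, endothelial and mural lists. Myh6 was the largest part of the CM sum, with means of 55692 CPM in P14 CTRL and 35495 CPM in P14 KO. At P90 its means were 55320 CPM in CTRL and 40538 CPM in KO. Of the 7 CM markers Myh6 alone passed in neonatal KO. The log2 fold change was positive for 1 of the 7 in neonatal KO and for 5 in adult KO. Cspg4, a mural marker, was 48.1 ± 16.9 CPM in P14 CTRL and 122 ± 8.27 CPM in P14 KO (log2 fold change 1.34). Of the 4 mural markers it alone passed in neonatal KO, and 2 had a positive and 2 a negative log2 fold change, with a median of -0.06. The part of these differences in the enzyme levels was not tested. TMM factors were 1.12 to 1.19 in P14 KO and 0.943 to 1.03 in P14 CTRL, and scaling to total counts instead moved the median of all neonatal fold changes from 0.00 to 0.22 (log2) and the calls from 501 higher and 577 lower to 1405 higher and 319 lower. Under that scaling Alas1 was at -0.998 (adjusted p = 0.00858, edgeR) and Hmox1 at 1.85 (adjusted p = 0.00943, edgeR). The interaction calls moved from 105 higher and 123 lower to 199 and 60, and the CTRL stage calls from 1779 and 1828 to 1314 and 2368.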

How the data were processed

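RNA of FACS-sorted cardiomyocytes was sequenced in 12 samples. Per the submitters' processing notes, the authors used CASAVA 1.8, STAR 2.5.3a and featureCounts in Subread 1.5.2 with mm10, and they deposited raw counts per gene in 2 tables, one per stage, with no strand setting given in the sources used here. Groups and replicate numbers came from the sample titles, and nothing states how same-numbered animals were related.

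The tests were run with edgeR 4.0.16 under R 4.3.3. Each comparison was fitted on its own samples and the interaction on all 12, with filterByExpr, TMM factors and the quasi-likelihood test, and genes passed at an adjusted p under 0.05. The test was first tried on simulated counts. DESeq2 1.42.0, other scalings, no filter, a replicate block, a fit of all 12 samples and leaving out each sample were the alternatives, and scaling to total counts was added after seeing the data. The authors used DESeq2. Some list genes are not reported here and stay out of the list counts. The 9 members and the lists were chosen with earlier results of these data known. Named list genes are the 4 with the smallest adjusted p among those that passed in each comparison. Reads were amplified without molecular identifiers, so intervals and floors cover counting error only. No source says that samples came from separate litters, and p-values measure the spread between these samples.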

Additional observations from a re-analysis of the deposited data

Results flagged for a closer look

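Differences between the neonatal and the adult KO effect passed the interaction test (edgeR, over all 12 samples) for 4 of the enzymes and pathway list genes named, and they are given as values. They were 1 of the 9 enzymes, 1 of 15 iron uptake, storage and sensing genes, 1 of 14 iron-sulfur genes and 1 of 11 regulators. In each other list 0 passed. Of all genes tested 1.78% passed, and nothing is read from these shares. Alas1 had a neonatal minus adult log2 difference of -1.38 (adjusted p = 0.0156, edgeR), from an effect of -1.21 at P14 and 0.17 at P90. The difference was 1.22 for Cp (adjusted p = 0.0351, edgeR), which rose by 1.59 at P14. It was -0.75 for Ndufab1 (adjusted p = 0.0499, edgeR), which did not pass under scaling to total counts (adjusted p = 0.0633, edgeR). It was 0.76 for Mafk (adjusted p = 0.0257, edgeR). Each of the 4 lost its call without at least 1 of the 12 samples, with the highest adjusted p at 0.0616 for Alas1, 0.103 for Cp, 0.139 for Ndufab1 and 0.0822 for Mafk (edgeR). Cspg4, alone of the 4 mural markers, passed as well, with a difference of 1.42 (adjusted p = 0.0415, edgeR). Tnni3, alone of the 7 CM markers, passed too, with a negative difference. Of the genes chosen for a pattern over these samples like that of an enzyme, 5 each for Hmox1, Alas1 and Alas2, 5 passed, beside 1.78% of all genes tested. They were Dpysl3 (1.25, adjusted p = 0.0227), Phyh (-0.89, adjusted p = 0.0210), Samm50 (-0.64, adjusted p = 0.0269), Ndufv1 (-0.67, adjusted p = 0.0351) and Atp5c1 (-0.66, adjusted p = 0.0454, edgeR). As the choice used these same samples and Alas1 itself passed, nothing is read from the calls of these 5 genes. Cspg4 and these 5 genes too lost their calls without at least 1 sample, with the highest adjusted p from 0.0719 for Phyh to 0.129 for Atp5c1 (edgeR).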

How the results depend on the processing

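In neonatal KO DESeq2 called 1787 genes, scaling to total counts 1724 and the fit of all 12 samples 2088, against 1078, and leaving out 1 sample gave 111 to 1004. In adult KO DESeq2 called 312, no filter 701, the replicate block 655 and the fit of all 12 samples 3, against 46, and leaving out 1 sample gave 6 to 51. The interaction gave 894 with DESeq2, 474 with no filter and 687 with the block, against 228, and 4 to 377 with 1 sample left out. For CTRL P90 against CTRL P14 leaving out 1 sample gave 2067 to 4768, against 3607.

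Leaving out 1 sample called 1 to 3 of the 9 members in neonatal KO, 0 to 2 in the interaction and 1 to 5 in CTRL P90 against CTRL P14. DESeq2 and the block each called 2 in the interaction. Signs turned only for values that had not passed. Under scaling to total counts Cpox was 0.0078 in adult KO, Hmox2 0.16 in neonatal KO and -0.091 in the CTRL stage comparison, and Blvra 0.10 in neonatal KO. With 1 sample left out Cpox ranged from -0.10 to 0.10 in adult KO, Hmox2 from -0.019 to 0.066 in the CTRL stage comparison, and Ppox from -0.10 to 0.14 in neonatal KO. The cause was not tested.

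The replicate numbers of KO and CTRL share no stated source. Deviations of same-numbered samples correlated at 0.05, 0.15 and 0.36 at P14 and at 0.18, 0.00 and 0.05 at P90. Those of differently numbered samples ranged from -0.24 to 0.15 at P14 and from -0.25 to 0.17 at P90. These values cannot settle whether same-numbered samples were related, and the main fits assumed no pairing. The block gave 1529 genes for neonatal KO, 655 for adult KO and 3139 for the CTRL stage comparison. The main fits gave 1078, 46 and 3607, and no named gene lost its call with the block. Depth limits Alas2, at 1 to 3 reads per P90 sample, and Hmox1, at 15 to 123 reads.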

Other observations

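The pathway lists were also read in CTRL CMs of both ages, where stage cannot be told apart from the table. Of 15 genes for cellular iron uptake, storage and sensing 8 passed, 5 higher and 3 lower at P90, beside 29.3% of all genes (14.5% higher, 14.9% lower), with a median log2 fold change of 0.16 against -0.01 over all genes. Tfrc, the transferrin receptor, fell from 903 to 295 CPM (log2 fold change -1.61, adjusted p = 0.000157, edgeR). Cp rose from 35.3 to 183 CPM (2.37, adjusted p = 0.000169, edgeR), Slc40a1 from 22.5 to 63.7 CPM (1.51, adjusted p = 0.000597, edgeR) and Hfe, a partner of the transferrin receptor, from 29.3 to 72.9 CPM (1.32, adjusted p = 0.000718, edgeR). Of 14 genes for heme and mitochondrial iron transport 4 were higher and 1 was lower, and Slc25a38, the mitochondrial glycine carrier for heme synthesis, rose from 18.9 to 40.2 CPM (1.10, adjusted p = 0.000497, edgeR).

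Of 3 other heme enzymes Ppox (-0.59, adjusted p = 0.0193, edgeR) and Blvrb (-0.64, adjusted p = 0.0138, edgeR) were lower at P90. Of 8 NRF2 and BACH1 targets tested 4 were higher, led by Nqo1, a quinone reductase (31.5 to 75.5 CPM, 1.27, adjusted p = 0.000538, edgeR), and 0 were lower. Of 11 regulators 2 were higher, Nr1d1, a heme-binding repressor of the circadian clock (47.2 to 122.9 CPM, 1.38, adjusted p = 0.000466, edgeR), and Esrra, a nuclear receptor of mitochondrial genes (0.66, adjusted p = 0.0200, edgeR). Of 14 iron-sulfur assembly genes 3 were higher (Nfs1, Hspa9 and Isca1), and of 11 genes for heme a and c and hemoproteins 2 were higher (Cyb5b and Sdhc). Without P14 CTRL replicate 2 the iron-sulfur genes Bola3, Fdx1, Hscb, Isca2, Iscu and Ndufab1 passed as well (edgeR). So did Cycs, Gucy1b3, Hccs and Mb of the heme a and c list and Mafg of the regulators. Nothing is therefore read from the shares of these lists beside the 29.3% of all genes. The calls of Ppox, Blvrb, Esrra, Nfs1, Hspa9, Isca1 and Sdhc were each lost without at least 1 CTRL sample (highest adjusted p from 0.0546 for Nfs1 to 0.0999 for Sdhc, edgeR).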
